A study of Mus musculus with 6 samples.

Results

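A microRNA (miRNA) is cut from a hairpin precursor as a short duplex. One strand, the guide, is usually kept in an Argonaute protein and pairs with target mRNAs through its seed, bases 2 to 8. The other strand, the passenger, is usually degraded. Older nomenclature marked the rarer strand of a hairpin with a star, and current names give only the arm, 5p or 3p. Some passenger strands are also loaded and act on targets of their own, because their seed differs from that of the guide.

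The array carried 115 names that end in a star among 599 mature mouse miRNAs. The star names of miR-297, miR-466, miR-467 and miR-669, whose hairpins are repeated copies, were set aside (4 names), which left 111 star strands. The rule uses only names and no measured value. A guide of the same name without the star was on the array for 100 of the 111, and the RefSeq hairpins added the opposite strand for 9 more.

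RNA came from the kidney cortex of 6 C57Bl6 mice, 3 untreated controls and 3 mice that received a 0.05% sodium diet with captopril, 0.5 g/L, for 10 days. Captopril blocks angiotensin converting enzyme, and no group received the diet or the drug alone, so their effects cannot be told apart. Each group held 2 males and 1 female, the females being control 3 and treated 1, and every mouse was 3.5 months old except treated 1 (5 months). Control 1, control 3 and treated 2 were stained with Cy3, and control 2, treated 1 and treated 3 with Cy5. In whole cortex, fewer cells of a type and less RNA per cell cannot be told apart.

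As a check of the tissue, the tubule miRNAs miR-192 and miR-194 were above background in all 6 samples, as were the epithelial miR-200b and miR-200c. The third tubule marker, miR-204, was above background in 3 samples. The brain miRNA miR-124 was in none. The liver miRNA miR-122 was in the 3 treated samples (1.22 to 1.62 times the mean empty spot) and in no control (1.14 to 1.19). Of the striated muscle miRNAs, miR-1 was in 2 samples (4.09 in control 1 and 2.26 in treated 1) and miR-133a in 1. Between 127 and 229 of the 599 miRNAs were above background in a sample, and control 2 (127) and treated 2 (132) had the fewest.

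The sequences of the 10 star strands found in all 6 samples are shown because the results on levels turn on them. Each is written 5′ to 3′ with the seed in capitals, and each matched a RefSeq mature miRNA base for base (positions in GRCm38.p6).
miR-30a*: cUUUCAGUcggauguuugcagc
miR-30e*: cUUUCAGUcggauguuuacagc
miR-30c-2*: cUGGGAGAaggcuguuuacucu
let-7d*: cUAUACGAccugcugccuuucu
let-7b*: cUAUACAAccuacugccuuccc
miR-140*: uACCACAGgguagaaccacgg
miR-200b*: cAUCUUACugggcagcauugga
miR-322*: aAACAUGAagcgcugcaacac
miR-10a*: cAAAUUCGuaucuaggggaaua
miR-10b*: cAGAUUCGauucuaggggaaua

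The miR-30a* sequence lies at chr1:23272315-23272336 (+) and miR-30c-2* at chr1:23291754-23291775 (+), both outside the span of any gene searched. The miR-30e* sequence, chr4:120772618-120772639 (−), is within the span of Nfyc, a subunit gene of a CCAAT-binding transcription factor. The let-7d* sequence is at chr13:48536024-48536045 (−), also outside the genes searched, and let-7b* at chr15:85707379-85707400 (+) is in the span of the long non-coding RNA Lncppara. The miR-140* sequence, chr8:107551288-107551308 (+), is in the span of the ubiquitin ligase gene Wwp2. The miR-200b* sequence, chr4:156055721-156055742 (−), and miR-322*, chrX:53054269-53054289 (−), are in the spans of the long non-coding RNAs Gm13648 and C430049B03Rik. The miR-10a* sequence, chr11:96317227-96317248 (+), lies in Hoxb3, and miR-10b*, chr2:74726114-74726135 (+), lies in the overlapping spans of Hoxd3 and Hoxd4. Spans were used without regard to strand, exon or intron. Genes whose symbol begins with Mir were left out of the search, so a host gene named in that way would not appear.

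The guides of 3 of these hairpins are shown so that the seeds of both strands can be compared.
miR-30a: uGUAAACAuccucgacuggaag
miR-30e: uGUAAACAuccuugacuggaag
let-7d: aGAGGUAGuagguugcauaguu
In each of these hairpins the star strand carries another seed than the guide. The star strands miR-30a* and miR-30e* share their own seed, UUUCAGU, and differ at 1 of 22 bases. Probes so alike may bind both strands, which was not tested, so their values may not be independent.

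Detection was read against the empty spots of each sample. A miRNA was above background where the mean log2 intensity of its 5 spots lay over 3 SD above the mean empty spot, a limit at 1.16 to 1.31 times the empty spots. Of the 111 star strands, 10 were above background in all 6 samples, 1 in 5, 9 in 4, 9 in 3, 4 in 2, 7 in 1 and 71 in none. All 6 samples held 9.01% of the star strands, while 19.5% of all 599 miRNAs and 21.9% of the 488 other miRNAs were above background throughout. With the limit at 3 samples, 29 star strands (26.1%) passed, against 32.9% of all miRNAs and 34.4% of the others (168). The 29 are called tested star strands here, and the other 82 were not tested.

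The samples did not see the star strands equally. The number above background was 25 in control 1, 12 in control 2, 32 in control 3, 34 in treated 1, 11 in treated 2 and 29 in treated 3. Control 2 and treated 2 thus gave the lowest counts for star strands as for all miRNAs. All 9 star strands found in 4 samples were missed in exactly these 2, as were 37 of the 40 miRNAs of the whole array found in 4 samples. Control 2 carried Cy5 and treated 2 Cy3, so this was not a split by dye. The miRNA named miR-712* was above background in the 3 Cy3 samples and in no Cy5 sample, and it was the only miRNA of the 599 with that pattern.

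Tested star strands were dim. Their median was 1.38 times the empty spots in control 1, 1.19 in control 2, 1.32 in control 3, 1.84 in treated 1, 1.12 in treated 2 and 1.47 in treated 3. In control 2 and treated 2 the median tested star strand therefore stayed under the detection limit. The 10 star strands above background in all samples read between 1.21 and 31.1 times the empty spots. Those found in 3 to 5 samples never exceeded 2.93 times, and those found in 1 or 2 samples reached at most 2.53 times (miR-29b*). The 71 found in none stayed at or under 1.23 times in every sample. Between the 5 spots of a probe the SD was 0.0953 (median over the tested star strands, log2).

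**Figure D1:**
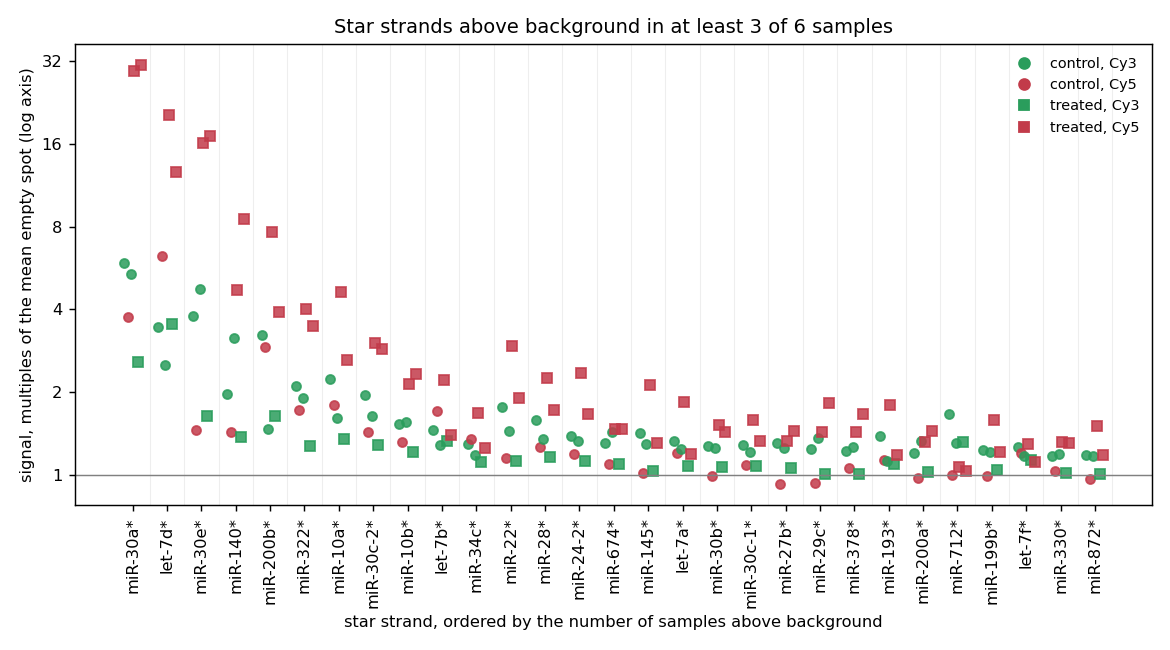
Signal of each of the 29 tested star strands in the 6 samples, as multiples of the mean empty spot of the same sample (log axis, line at 1). Circles are controls, squares treated samples, green Cy3 and red Cy5. Strands stand in order of the number of samples above background, and miR-30a* reaches 31.1 times the empty spots while most strands to the right lie under 2.

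A star name can belong to either arm of the hairpin. RefSeq held the exact sequence of 101 of the 111 star strands, 63 on the 3p arm and 38 on the 5p arm. Among the 24 tested star strands with a match, 17 (70.8%) were 3p, and among the 77 not tested with a match, 46 (59.7%) were. Of the 10 found in all samples, 9 were 3p strands and miR-200b* was the single 5p strand. No test was made of these shares.

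The first base of the strand also differed between the tested and the other star strands. A cytosine began 17 of the 29 tested star strands (58.6%) and 24 of the 82 others (29.3%). An adenine began 5 of the 29 (17.2%) and 28 of the 82 (34.1%). Of the opposite strands on the array, 56.6% began with uracil. Median GC content was 50% in tested and 47.8% in the other star strands, and 98 of the 111 were 22 bases long. These are descriptions of the array's sequences, and strands of a family share them by descent.

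Neighbouring hairpins did not always show the same detection. Both star strands of the miR-30 cluster on chromosome 1, miR-30a* and miR-30c-2*, were above background in all samples. On chromosome 4, miR-30e* was in all and its neighbour miR-30c-1* in 4. The let-7 cluster on chromosome 13 held let-7d* in all samples and let-7f* in 3. By contrast, miR-322* on the X chromosome was above background throughout while its neighbour miR-503* was in no sample. The star strands miR-24-1* and miR-24-2* share the seed UGCCUAC and their guide miR-24, and only miR-24-2*, found in 4 samples, was above background anywhere. The chromosome 12 Dlk1-Dio3 region, an imprinted cluster, carried 13 of the star strands, of which miR-299* alone was above background, in 2 samples.

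Families were described by counts. All 5 miR-30 star strands, from hairpins of a family abundant in kidney, were tested, 3 of them being above background in all samples. The let-7 family had 7 star strands, of which 4 were tested and let-7i* was above background in none. None of the 8 star strands of the proliferation-linked miR-17 to miR-92 cluster and its paralogs was tested, and 7 were in no sample. Of the miR-29 family, which represses collagen genes, miR-29c* was tested, miR-29b* appeared in 2 samples and miR-29a* in none. In the miR-15/16 group, related by guide seed, miR-322* was the only tested strand of 5.

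Many star strands were not above background although their guide was. The guide was above background in all 6 samples for 52 star strands. Of these 52 star strands, 8 were above background in all samples, 21 were tested, 6 were found in 1 or 2 samples and 25 in none. The 25 included miR-21*, from the hairpin of the injury-linked miR-21, and miR-191*, miR-200c*, miR-17*, miR-29a* and miR-125b*. Where the guide was above background in no sample (37 pairs), the star was also in none for 31, in 1 or 2 samples for 3, and tested for 3.

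**Figure D2:**
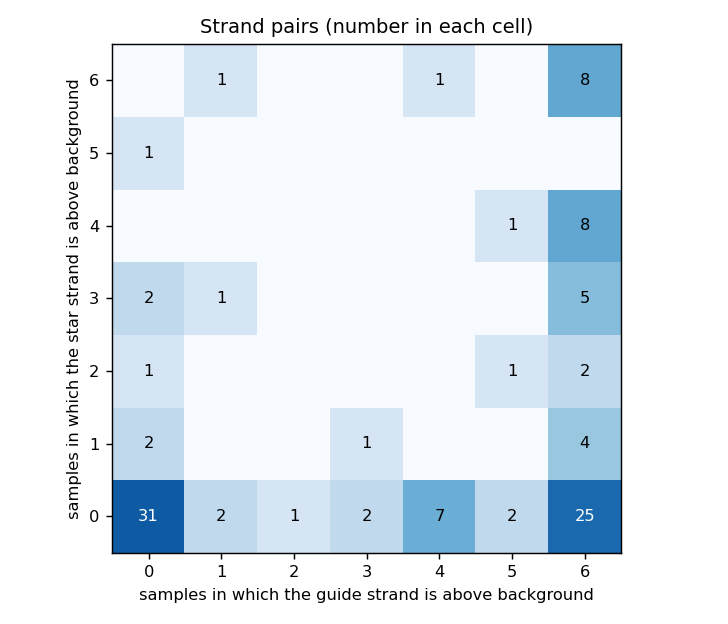
Number of strand pairs by the number of samples in which the guide (horizontal axis) and the star strand (vertical axis) were above background. The corner cells hold 31 pairs with neither strand found in any sample, 25 with only the guide found in all 6, and 8 with both found in all 6.

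Guide and star were read by different probes, so their values are set side by side and the brightness of one does not rank its abundance against the other. Values in the next sentences are multiples of the empty spots, given in the order control 1, 2, 3 and treated 1, 2, 3. The star strand miR-30a* read 5.92, 3.74, 5.36, 29.6, 2.58 and 31.1, and its guide miR-30a read 23.2, 13.8, 53.2, 113, 7.91 and 162. Both strands of this hairpin were lowest in treated 2 and highest in treated 3. The star strand let-7d* read 3.44, 6.24, 2.5, 20.4, 3.55 and 12.6, and its guide let-7d lay between 70.1 (control 3) and 1115 (treated 1). Both let-7d strands were lowest in control 3 and highest in treated 1. The star strand miR-30e* read 3.79, 1.45, 4.74, 16.1, 1.64 and 17.2, and its guide read 13.7, 5.44, 40.4, 49.0, 3.68 and 82.8. Both were highest in treated 3, but the star strand was lowest in control 2 and the guide in treated 2. These multiples also carry each sample's own contrast between signal and empty spots, which the normalised values below take out in part.

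For the remaining strands above background throughout, the ranges over the 6 samples were as follows. The star strand miR-200b*, from a hairpin whose guide represses the ZEB transcription factors of epithelial cells, lay at 1.47 to 7.68 times the empty spots and its guide at 25.8 to 375. The star strand miR-10a* lay at 1.35 to 4.62 and miR-10a at 28.8 to 462. In the Hoxd hairpin, miR-10b* lay at 1.21 to 2.32 and miR-10b at 38.9 to 576. The lowest miR-10b* value, 1.21 in treated 2, lay close to the detection limit of that sample (1.19). The lowest values of miR-10a* (treated 2) and miR-200b* (control 3, limit 1.16) lay further above it. In each of these hairpins the guide probe was far above the limit in every sample. The remaining pairs were let-7b*, 1.28 to 2.22 against 61.5 to 1090 for let-7b, and miR-30c-2*, 1.29 to 3.03 against 36.6 to 665 for miR-30c, a guide that 2 hairpins share.

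The hairpins of miR-140 and miR-322 stood apart, since their guide was above background in fewer samples than the star strand. The star strand miR-140*, from a hairpin best known in cartilage, read 1.97, 1.43, 3.13, 4.70, 1.38 and 8.56 times the empty spots. The probe named miR-140, for the guide, lay at 1.00 to 1.27 and was above background in treated 1 only. The star strand miR-322* was above background in all samples at 1.28 to 4.00, whereas miR-322, the mouse counterpart of human miR-424, lay at 1.05 to 5.35 and was above background in 4 samples. The guide miR-322 was missed in control 2 and treated 2, and only there did the star strand read higher. In control 1, control 3, treated 1 and treated 3 the guide read 2.14, 3.30, 5.21 and 5.35. The star strand read 2.11, 1.90, 4.00 and 3.49 in the same samples.

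Besides miR-140*, the tested star strands whose guide was not tested were miR-34c*, miR-330*, miR-712* and miR-193*. The guide of miR-34c*, from a hairpin that p53 induces, lay at 0.982 to 1.14 times the empty spots and was above background nowhere, while miR-34c* itself read 1.29, 1.35, 1.18, 1.68, 1.11 and 1.25. It was above background in 5 samples and missed in treated 2. The star strand miR-330* read 1.16, 1.03, 1.19, 1.32, 1.02 and 1.31 and its guide at most 1.14. The star strand miR-712* read 1.66, 1.00, 1.31, 1.07, 1.31 and 1.03 and its guide at most 1.11. The star strand miR-193* read 1.38, 1.13, 1.12, 1.79, 1.10 and 1.18, and its guide was above background in 1 sample. None of these strands read over 1.79 times the empty spots, and each lay close to or under the limit in several samples. No other array or assay of these strands was used here.

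The other 15 tested star strands were above background in 3 or 4 samples each, and their multiples of the empty spots are given in the same order. Those of broadly expressed hairpins come first. The strand miR-22* read 1.77, 1.15, 1.44, 2.93, 1.13 and 1.91 (guide miR-22, 2.66 to 40.5). The strand miR-28* read 1.59, 1.26, 1.35, 2.25, 1.16 and 1.72 (guide 1.29 to 5.38, above background in 5 samples). The strand miR-24-2* read 1.38, 1.19, 1.32, 2.35, 1.12 and 1.66 (guide miR-24, 7.77 to 128). All 3 were highest in treated 1 and lowest in treated 2. The strand miR-674* read 1.31, 1.09, 1.44, 1.46, 1.09 and 1.47 (guide 1.36 to 4.46), and miR-872* read 1.18, 0.966, 1.17, 1.5, 1.01 and 1.18 (guide 1.2 to 3.76). For miR-27b* the values were 1.31, 0.928, 1.26, 1.33, 1.06 and 1.44 (guide 11.7 to 228). In these hairpins too, control 2 and treated 2 were the low samples.

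The remaining strands come from hairpins with better known tissue roles. The strand miR-145*, whose guide marks smooth muscle, read 1.42, 1.02, 1.29, 2.13, 1.03 and 1.30 (guide 6.69 to 90.3). The strand miR-200a*, of the epithelial miR-200 family, read 1.2, 0.976, 1.33, 1.31, 1.02 and 1.44 (guide 3.54 to 55.7). The strand miR-29c* read 1.24, 0.935, 1.36, 1.44, 1.01 and 1.83 (guide 5.56 to 127). Each of these guides was above background in all samples, and each star strand was at the level of the empty spots in control 2 and treated 2. The strand miR-378*, from a hairpin in a metabolic coactivator gene, read 1.22, 1.06, 1.26, 1.43, 1.00 and 1.66 (guide 1.80 to 19.4). For miR-199b*, to which no opposite strand could be matched by name or hairpin, the values were 1.23, 0.986, 1.21, 1.58, 1.04 and 1.21. These 2 strands were also missed in control 2 and treated 2.

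Among family members, let-7a* read 1.32, 1.2, 1.24, 1.84, 1.08 and 1.19 (guide 85.1 to 1356), and let-7f* read 1.26, 1.2, 1.17, 1.30, 1.13 and 1.11 (guide 75.9 to 1258). The let-7a* sequence is the same in the let-7a-1 and let-7c-2 hairpins, so its pairing with let-7a here rests on the name alone. The strand miR-30b* read 1.27, 0.986, 1.25, 1.51, 1.07 and 1.43 (guide 25.3 to 502), and miR-30c-1* read 1.28, 1.09, 1.21, 1.58, 1.08 and 1.32 (guide 36.6 to 665). The guides of these families were among those far above background, while the star strands did not pass 2 times the empty spots. Treated 1 gave the highest value of all 4.

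Below the limit for a test, 11 star strands were above background in 1 or 2 samples. Those found in 2 samples were miR-29b* (control 1 and treated 1, at 1.61 and 2.53), miR-455*, let-7c-1* and miR-299*. Those found in 1 sample were let-7g*, miR-16*, miR-135a*, miR-7a*, miR-425*, miR-150* and miR-19a*, at no more than 1.41 times the empty spots. The guides of let-7g*, miR-16*, miR-425* and miR-150* were above background in all 6 samples, and those of miR-299*, miR-135a* and miR-19a* in none.

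The sequences of miR-34c* and miR-330* are shown because their guides were not seen.
miR-34c*: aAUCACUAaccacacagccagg
miR-330*: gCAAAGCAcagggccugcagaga
In GRCm38.p6, miR-34c* lies at chr9:51103044-51103065 (−) in the spans of Btg4 and Hoatz, and miR-330* at chr7:19181525-19181547 (+) in the span of Eml2. Both are 3p strands.

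Treated and control kidneys were compared on quantile-normalised log2 intensity with limma, in a model with group and dye. The p-values were adjusted by Benjamini-Hochberg over all 197 tested miRNAs of the array. No star strand passed an adjusted p of 0.05 (0 of 29, against 0% of all tested miRNAs). None had an unadjusted p under 0.05 either, against 0.508% of all tested miRNAs (1 of 197). The adjusted p was 0.995 for each of the 29 star strands, and the smallest unadjusted limma p was 0.215 (miR-322*). A p that misses the threshold does not show that levels were equal, so 95% confidence intervals are given.

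Differences, treated minus control on the log2 scale, ran from -0.29 (miR-322*) to 0.49 (miR-30e*) among the star strands. They were above 0 for 11 and below 0 for 18, and their median was -0.0244, against -0.0105 over all tested miRNAs. The standard error had a median of 0.247, against 0.306 over all. The 95% interval lay within a change of 2-fold either way for 23 of the 29 (79.3%) and for 104 of the 197 (52.8%). The 6 star strands with wider intervals were miR-30a*, miR-30e*, let-7d*, miR-140*, miR-200b* and let-7b*, all of them above background in all 6 samples. With the replicate number as a block, all 29 star intervals lay within 2-fold, against 86.8% of all tested miRNAs. That fit has 1 residual degree of freedom, and among the star strands its interval left out 0 for miR-30e* alone (0.0078 to 0.98). Most tested star strands lay near the empty spots, where the normexp offset of 50 draws log2 values together. Narrow intervals there, in either fit, do not show that a 2-fold change is excluded. With plain subtraction of the median empty spot, miR-34c* gave -0.64 (main fit -0.24) and miR-28* -0.28 (-0.09). By contrast, miR-200b* gave -0.06 (-0.10).

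Within the 3 pairs of equal replicate number, the treated sample was higher in every pair for 2 star strands, miR-30a* and let-7d*, against 14.2% of all tested miRNAs. It was higher in none for 5, miR-322*, miR-10a*, miR-28*, let-7b* and let-7f*, against 19.8%. The samples of each pair carried different dyes. Control 1 was male and treated 1 an older female, and control 3 was female and treated 3 male, so these pairs also differed in sex.

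The treated and control values overlapped for 27 of the 29 star strands. No star strand had all treated samples above all controls, against 2.54% of all tested miRNAs. All treated samples lay below all controls for miR-322* and miR-28*, 6.9% of the star strands, against 2.03% of all tested miRNAs.

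Normalised log2 intensities are listed below as control 1, 2, 3 and then treated 1, 2, 3. For miR-322*, whose guide shares its seed with the cell-cycle repressors miR-15 and miR-16, they were 7.81, 7.87, 7.69 and 7.51, 7.48, 7.63. The highest treated sample lay just under the lowest control. The difference was -0.29 (SE 0.205, 95% interval -0.80 to 0.23, limma adjusted p = 0.995), and it was -0.27 within the Cy3 samples and -0.30 within the Cy5 samples. For miR-28*, a 3p strand within the span of Lpp, a gene of cell adhesion, they lay at 7.07 to 7.12 in the controls and 6.95 to 7.06 in the treated samples. The groups were separated by less than the SE, and all 3 treated samples were low, with a difference of -0.09 (SE 0.202, interval -0.60 to 0.42).

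The miR-30 star strands held the largest positive difference. For miR-30e* the values were 8.84, 7.56, 9.44 and 9.15, 8.46, 9.32. Control 2 was lowest and treated 2 next, and the groups overlapped. The difference was 0.49 (SE 0.567, interval -0.93 to 1.91), but -0.69 within Cy3 and 1.68 within Cy5. With the replicate number as a block, its unadjusted limma p was 0.0476 and its adjusted p 0.625. For miR-30a* the values were 9.67, 9.22, 9.58 and 10.08, 9.47, 10.08. Treated 1 and 3 lay above every control and treated 2 did not. The difference was 0.35 (SE 0.297, interval -0.39 to 1.09), with -0.16 within Cy3 and 0.86 within Cy5. For miR-30c-2* the values were 7.59, 7.48, 7.51 and 7.25, 7.51, 7.48, and the groups overlapped. The difference was -0.08 (interval -0.60 to 0.45). Over the 5 miR-30 star strands, 4 differences were above 0 and none was called, with a median of 0.12.

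Of the 4 tested let-7 star strands, let-7d* and let-7b* were above background in all samples. For let-7d* the values were 8.72, 10.08, 8.30 and 9.50, 10.12, 9.01. Control 2 and treated 2 were the highest of their groups. The difference was 0.39 (SE 0.582, interval -1.06 to 1.85), with 1.61 within Cy3 and -0.82 within Cy5. For let-7b* the values were 6.95, 7.82, 6.90 and 6.92, 7.69, 6.78, again highest in the samples numbered 2. The difference was -0.10 (SE 0.423, interval -1.16 to 0.96), with 0.76 within Cy3 and -0.97 within Cy5.

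For miR-200b* the values were 8.52, 8.78, 7.25 and 8.36, 8.42, 7.73. The samples numbered 3 were lowest in both groups, and the difference was -0.10 (SE 0.500, interval -1.35 to 1.15). For miR-140* the values were 7.63, 7.51, 8.58 and 7.71, 7.92, 8.42. Here the samples numbered 3 were highest in both groups, and the difference was 0.19 (interval -0.82 to 1.19). For miR-10a* the values were 7.87, 8.00, 7.40 and 7.69, 7.77, 7.35, and the difference was -0.17 (interval -0.88 to 0.54). For miR-10b* the values were 7.02, 7.27, 7.32 and 6.88, 7.32, 7.25, and the difference was -0.03 (interval -0.65 to 0.59). Both Hox-cluster star strands overlapped between groups.

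Among the star strands whose guide was not seen, miR-34c* gave 6.68, 7.33, 6.69 and 6.72, 6.86, 6.66, with a difference of -0.24 (interval -0.90 to 0.43). Control 2 alone stood above the rest. For miR-712* the values were 7.21, 6.44, 6.97 and 6.38, 7.63, 6.40, and the mean was 6.872 in the controls and 6.802 in the treated samples. The fitted difference was nonetheless 0.24 (interval -0.37 to 0.86), and it was -0.07 without the dye term. All 3 Cy3 samples lay above all 3 Cy5 samples, and the part of the dye in this was not tested beyond the dye term of the fit. For miR-330* the values were 6.50, 6.48, 6.72 and 6.56, 6.40, 6.71, and the difference was -0.02 (interval -0.59 to 0.54).

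For the other tested star strands the differences ran from -0.18 (let-7a*) to 0.12 (miR-30b*), and the groups of each overlapped.

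**Figure D3:**
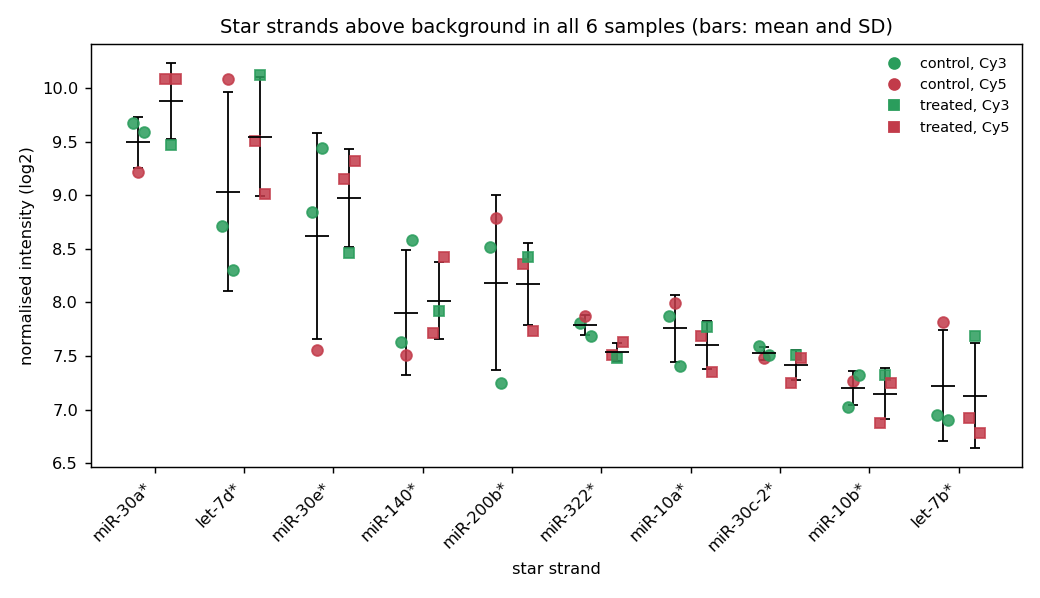
Normalised log2 intensity of the 10 star strands above background in all 6 samples, with a point per sample and bars for the mean and SD of each group of 3. Circles are controls and squares treated samples, green Cy3 and red Cy5. The groups overlap for every strand except miR-322*, where the treated samples lie at 7.48 to 7.63 and the controls at 7.69 to 7.87.

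The sign of the difference was not the same in both dyes for most star strands. This held for 24 of the 29 (82.8%), counting miR-24-2* with no difference within Cy5, and for 76.6% of all tested miRNAs. Each within-dye value sets 1 sample of one group against 2 of the other: treated 2 is the only treated Cy3 sample and control 2 the only Cy5 control. Each within-dye value therefore rests on 1 of these samples. The 5 star strands with one sign in both dyes included miR-322*, miR-28* and miR-30c-2*.

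**Figure D4:**
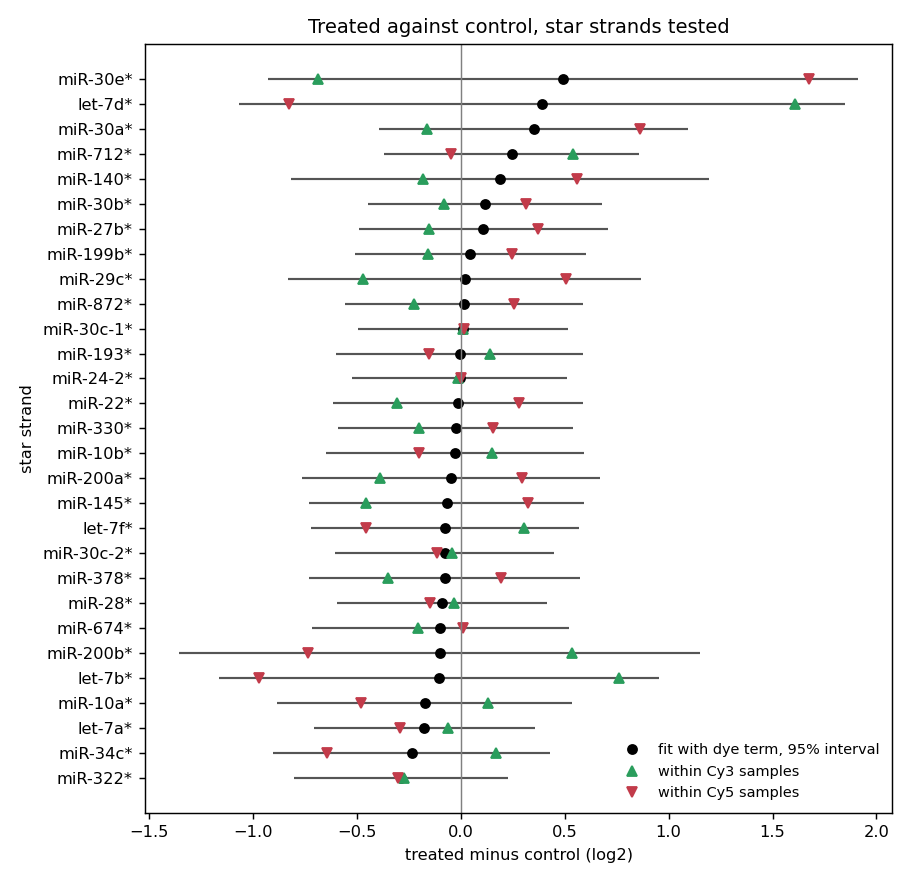
Treated minus control on the log2 scale for the 29 tested star strands. Black points with bars are the limma fit with a dye term and its 95% interval, and triangles are the differences within Cy3 (green) and within Cy5 (red). Every interval crosses 0, and the 2 triangles lie on the same side of 0 for 5 strands.

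Samples of the same number moved together in some of the 29 tested star strands, as in part of all tested miRNAs. The samples numbered 2 were both the highest of their groups for 4 star strands (let-7b*, let-7d*, let-7f* and miR-34c*) and both the lowest for 9, among them miR-30a*, miR-30e*, miR-29c*, miR-145* and miR-200a*. Over all tested miRNAs these shares were 14.7% and 20.3%. All of the 9 but miR-30a* and miR-30e* were under the detection limit in control 2 and treated 2. The samples numbered 3 were both highest for 10 star strands and both lowest for 4, with 29.4% and 14.2% over all. What the shared number stands for is not stated in the labels.

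The treatment difference of a star strand was set beside that of its guide in 23 pairs, with 22 distinct guides, where both were tested. Guide differences ran from -0.42 to 0.45, none of them called, and the 2 strands had the same sign in 8 of the 23 pairs. For miR-30e the star strand gave 0.49 and the guide -0.42, and for miR-30a 0.35 and -0.26. For let-7d the 2 strands gave 0.39 and 0.20. Among the brightest guides, quantile normalisation gives samples of equal rank the same value. The let-7d guide stood at 15.18 in control 1, control 2, treated 1 and treated 2, and at 14.29 in control 3. For miR-10a the star strand gave -0.17 and the guide 0.45, and for miR-200b -0.10 and 0.22. For miR-322 the star gave -0.29 and the guide -0.0044. The gap between strands, star minus guide, ran from -0.63 (miR-10a) to 0.91 (miR-30e) and was not tested.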

How the data were processed

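Small RNA of 6 kidney cortex samples was tailed with poly(A), tagged and stained with Cy3 or Cy5 by a service provider, per the labels' protocols. The deposited spot intensity is the mean brightness of each of 3968 spots on a linear scale, per the file headers, with the background still in it. Another deposited table gives the authors' processed intensity per miRNA. How it was normalised is not stated in the labels or headers, and its scale and centring are unknown. Each of its columns matched the spots of its own sample best (Spearman's rho 0.995 to 0.999 across the tested miRNAs, against at most 0.965 with another sample).

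Intensity was corrected with normexp (offset 50, all spots), averaged over 5 spots as log2 and quantile-normalised over 599 probes in R 4.3.3 with limma 3.58.1. A miRNA above background in at least 3 of 6 samples, whatever the group, was tested with lmFit and eBayes (group and dye, two-sided), and its Benjamini-Hochberg adjusted p called under 0.05. The fit was tested on simulated data with planted differences of 3 log2 units either way. These are far larger than any star strand difference, so that test does not show whether small changes would be found. The median empty spot read 219 to 459 in Cy3 and 34.4 to 51.2 in Cy5 samples, and the number of arrays limits the precision.

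Tested star strands are described one by one, those found in 1 or 2 samples by name, and the rest by count. Treatment differences with intervals are given for the strands above background in all samples, the tested ones whose guide was in none and, chosen after its values were seen, miR-28*. The rule for the members uses names only, but it and the lists were set with earlier results of these data known. Sequences are those printed on the array, matched exactly to RefSeq (GRCm38.p6). The strands named miR-124*, miR-133a*, miR-145*, miR-181a-2*, miR-199b*, miR-19a*, miR-30b*, miR-378*, miR-676* and miR-712* had no exact match, so their sequence and position are not given. Guides were matched by name or, for 9, by hairpin, and both ways gave the same guide for the 85 where both applied.

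Each sample is a separate mouse, per the labels. Both groups carry replicate numbers 1 to 3. After the group mean was taken off, the control and treated sample of each number correlated across the tested miRNAs with r of 0.447, 0.460 and 0.781. All exceed 0.1, but so do 0.256 for control 1 with treated 2 and 0.246 for control 2 with treated 1. The other unmatched pairs lay between -0.572 and -0.452. Taking off the group mean ties the samples of a group together, so positive values force negative ones in other pairs. The negative values are therefore no separate support for a pairing. The data thus set number 3 apart more clearly than numbers 1 and 2 from each other. The numbers were treated as pairs on the data alone, so the block was picked from the same values that it then fits. The fit with that block was run as an alternative, beside other background, normalisation, filter and detection settings and leaving out each sample.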

Additional observations from a re-analysis of the deposited data

How the results depend on the processing

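No star strand and no miRNA passed an adjusted p of 0.05 under any alternative run. A replicate block added to the dye model left 1 star strand, miR-30e*, with an unadjusted p under 0.05 (limma adjusted p = 0.625), as for 15 of the 197 tested miRNAs, and the block changed no call. The count of star strands with an unadjusted p under 0.05 was also 1 without a filter, 2 without control 2 and 3 without treated 2.

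The number of star strands above background in at least 3 samples was 29, and 52 when the median spot had to pass the 95th percentile of the empty spots. It was 39 at 2 SD and 28 in at least 3 of the 4 samples other than control 2 and treated 2, an alternative chosen after seeing the data. Leaving out single samples gave 21 to 29.

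The median difference of the star strands was -0.0244, and -0.753 under scaling to the 75th percentile, which also moved that of all tested miRNAs to -0.526. Without normalisation the median of all was 0.295 and that of the star strands 0.0679. Several signs turned, which should be read against these shifts. Without normalisation the difference was 0.165 for let-7b*, 0.171 for miR-10a*, 0.119 for miR-10b*, 0.299 for miR-200b*, 0.175 for miR-30c-2*, 0.0707 for miR-322*, 0.0633 for miR-28* and 0.0047 for miR-34c*. At the 75th percentile it was -0.384 for miR-140* and -0.712 for miR-712*. Cyclic loess gave 0.0524 for let-7b*. Without the dye term miR-712* gave -0.0700, and in the authors' deposited table -0.365, where miR-330* gave 0.161. The cause was not tested.

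Leaving out single samples turned the sign of the strands listed next, 8 of them without control 2 and 3 without treated 2, each of which leaves a dye with a single group. The range was -1.01 to 0.847 for let-7b*, -0.818 to 1.67 for let-7d*, -0.507 to 0.138 for miR-10a*, -0.209 to 0.164 for miR-10b* and -0.206 to 0.583 for miR-140*. It was -0.747 to 0.582 for miR-200b*, -0.174 to 0.843 for miR-30a*, -0.696 to 1.72 for miR-30e*, -0.670 to 0.196 for miR-34c*, -0.0429 to 0.602 for miR-712* and -0.225 to 0.159 for miR-330*. The sign of miR-322*, miR-28* and miR-30c-2* stayed negative in each of these fits.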
